A study of Arabidopsis thaliana with 26 samples.

Results

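The genes described here are 6 Arabidopsis regulators used as markers or known as actors of the quiescent centre (QC) and of the stem cell niche around it: AGL42 (AT5G62165), TEL1 (AT3G26120), MYB56 (AT5G17800), ERF115 (AT5G07310), NTT (AT3G57670) and WIP4 (AT3G20880). They were taken by locus code from the 16255 loci of the deposited array table, and each was measured by 1 probe set. The data come from 26 arrays of root RNA in 10 groups. For the time series, seedlings carrying green fluorescent protein (GFP) under the SCR promoter, which is active in the endodermis and the QC, were moved 2 days after germination to medium with 1 µM 2,4-D, a synthetic auxin. The last 250 µm of the root tip was then cut, protoplasted and sorted for GFP at 0 h (no auxin, 3 arrays) and at 24 h, 48 h, 72 h and 96 h (2 arrays each). These are called SCR cells below. No untreated seedlings were kept alongside the later times, so time on 2,4-D and seedling age cannot be told apart.

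The QC cells were sorted for GFP driven by the WOX5 promoter, a QC promoter, 3 days after germination and without 2,4-D. Their 3 sources were a wild type harvest made separately, the jkd-4 mutant, and Col-0 wild type grown with that mutant (3 arrays each). Whole meristems cut from jkd and from wild type roots at the same age, with no reporter named and no sort described, gave 3 arrays each. The jkd allele affects JKD, the JACKDAW gene, whose zinc finger protein helps set ground tissue identity. The free-text descriptions of both jkd groups disagree with their titles and source names, and genotype was taken from the titles and source names. JKD itself had a signal of 1.37, 24.9 and 6.60 in jkd QC, against 68.7, 74.0 and 109 in wild type QC grown with it, and of 11.3, 13.4 and 6.23 in jkd meristems, against 201, 173 and 184 in wild type meristems. JKD was low on all 6 arrays labelled jkd, with no overlap with wild type of the same tissue. In SCR cells at 0 h, not labelled jkd, JKD had 11.3, 41.9 and 102, so a low signal was not confined to the jkd arrays. The labels do not say that the arrays of a group came from different plant batches, so the p-values cover the spread among these arrays, which may be technical.

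The QC is a small group of slowly dividing cells at the centre of the root stem cell niche, and it keeps the neighbouring initials from differentiating. MYB56 (also called BRAVO) is a MYB transcription factor that holds back QC division and is itself repressed by brassinosteroid signalling. ERF115 is an ERF transcription factor that promotes QC division and the replacement of damaged stem cells, and the CCS52A2-bound anaphase-promoting complex marks it for destruction. TEL1 is a Mei2-like RNA-binding protein related to maize terminal ear1. NTT and WIP4 are WIP zinc finger proteins that act together with a further member, WIP5, when the root meristem is founded in the embryo. AGL42 is a MADS-box factor that has been used as a QC reporter and also delays floral senescence.

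**Figure D1:**
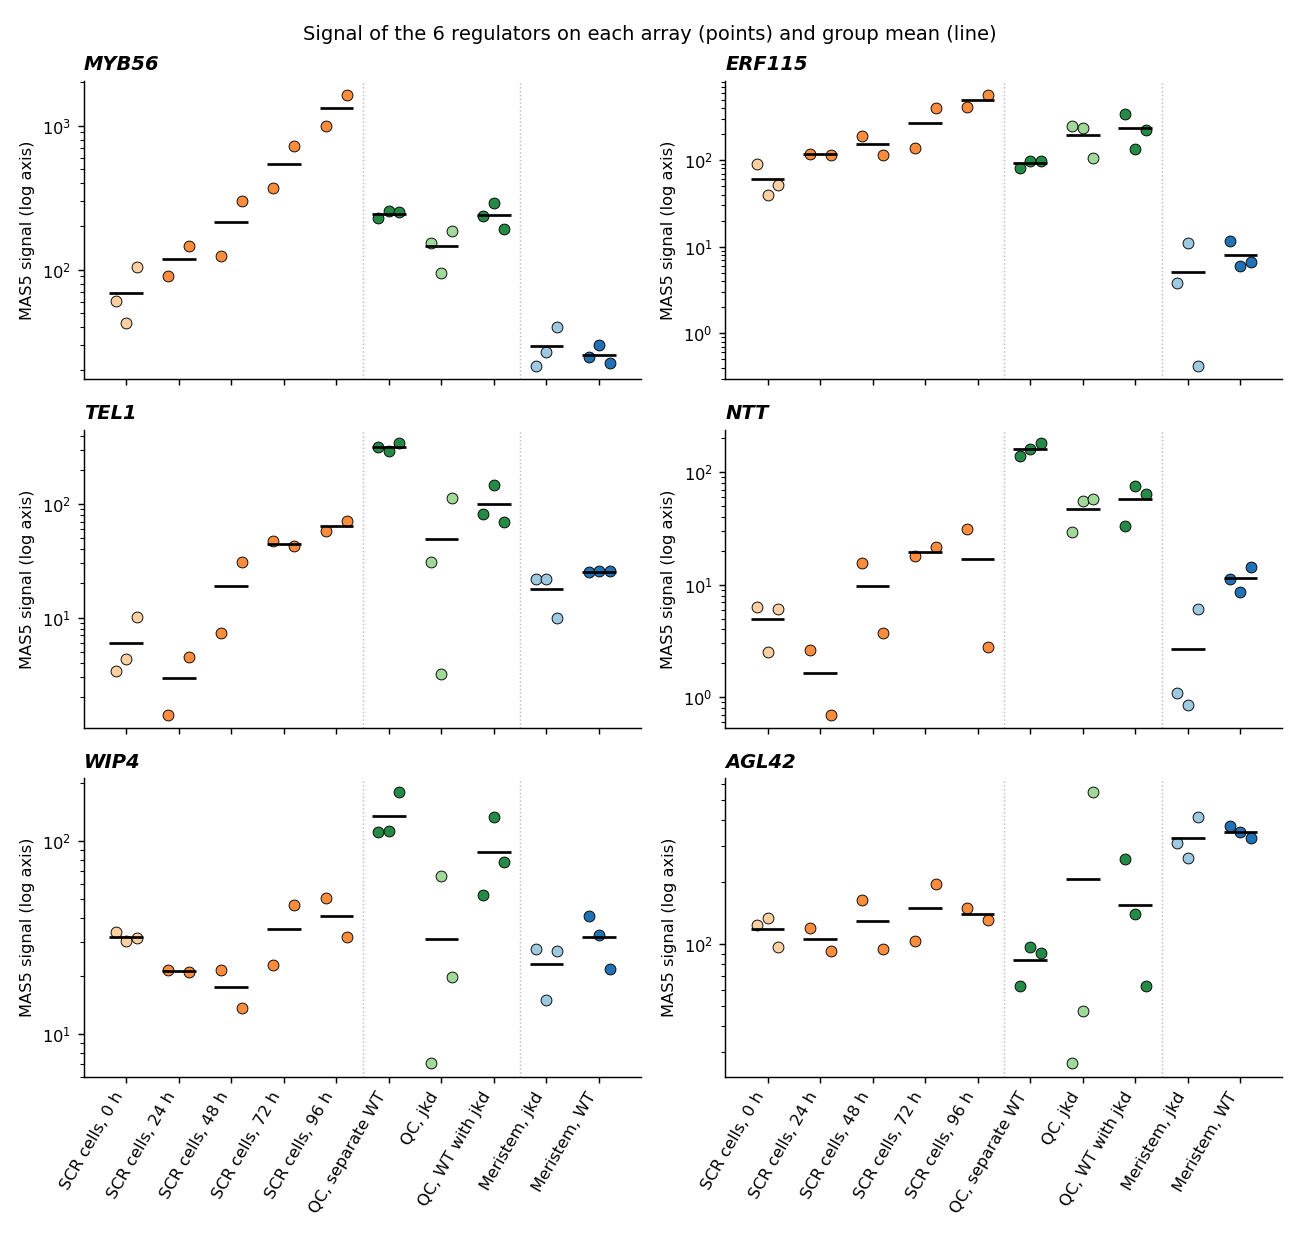
MAS5 signal (arbitrary units, log axis) of each of the 6 genes on each of the 26 arrays (points) with the group mean (line). MYB56 and ERF115 reach their highest group means, 1317 and 493, in SCR cells at 96 h. TEL1, NTT and WIP4 are highest in the separate QC harvest, and AGL42 is highest in the wild type meristem.

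The first question was whether the QC arrays carry these markers above the meristem as a whole. In the separate QC harvest 5 of the 6 genes were higher than in wild type meristems and AGL42 was lower. Here and below, a gene is counted as changed when its adjusted p in limma (fitted on log2 of signal plus 16 over all probe sets kept by an intensity filter) is under 0.05. All 6 members passed, where 58.3% of the 11469 probe sets tested did, 27.0% being higher and 31.3% lower in the QC. NTT and ERF115, near the low end of the meristem arrays, entered the fit through the QC arrays, where they are high, so the count is given as a description.

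TEL1 had signals of 319, 295 and 343 in the separate QC, against 25.0, 25.9 and 25.5 in wild type meristems. The mean signal was 12.5 times higher, a log2 difference of 3.01 ± 0.20 (SE, limma, adjusted p = 2.79e-08). NTT had 139, 162 and 180 in the separate QC, against 11.3, 8.57 and 14.5 in the meristems, a log2 difference of 2.68 ± 0.23 (limma, adjusted p = 3.24e-07). WIP4, the other WIP gene, had 112, 112 and 180 in the separate QC, against 41.1, 32.6 and 21.8 in the meristems (1.64 ± 0.25, limma, adjusted p = 7.02e-05). None of the 3 genes overlapped between the groups. The share of all probe sets without overlap was not counted here or in the comparisons below, so statements on overlap are descriptions.

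Both division regulators were also higher in the separate QC than in the meristems. MYB56 had 229, 253 and 250 in the separate QC, against 24.6, 30.2 and 22.5 in the meristems (2.64 ± 0.21, limma, adjusted p = 1.43e-07). ERF115 had 81.6, 96.6 and 98.6 in the separate QC, against 11.6, 5.96 and 6.62 in the meristems (2.17 ± 0.24, limma, adjusted p = 4.13e-06). The ERF115 meristem signals lay on average at the 20.8th percentile of their arrays, near the low end of what the arrays read. Both ERF115 and NTT were called in all 13 alternatives, but the size depended on the constant added before the log: ERF115 had 1.12 with 64 and 3.41 with 1, and NTT 1.57 and 3.72. Untreated SCR cells were also above all wild type meristem arrays, with 42.8 to 104 for MYB56 and 39.9 to 89.3 for ERF115. Of the 6 endodermis markers 5 were higher in this QC than in the meristems, where 27.0% of all probe sets were. Their list median was 2.53, against -0.08 over all probe sets. Their part in the QC differences was not tested.

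AGL42, used as a QC reporter, was lower in the separate QC than in the meristems. It had 62.8, 96.7 and 90.5 in the separate QC, against 374, 352 and 326 in wild type meristems, a log2 difference of -1.90 ± 0.20 (limma, adjusted p = 2.59e-06). All 3 meristem arrays were higher than all 3 QC arrays. Its mean in the other wild type QC harvest was 154 ± 99.2 (SD, n = 3), again below the meristems. That difference did not pass in the main fit (limma, adjusted p = 0.128). In bulk RNA, fewer cells of a type and less RNA per cell cannot be told apart, for this and all results below.

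The separate QC arrays and the meristem arrays were deposited with different numbers of decimals, and the QC cells were protoplasted and sorted while the meristems were cut whole. The QC arrays grown with jkd share the number format of the meristem arrays, so the comparison was repeated with them. These QC cells were also protoplasted and sorted. Cell type and sorting thus cannot be told apart in any pairing of QC and meristem. MYB56 was higher by 2.60 ± 0.32 (limma, adjusted p = 9.37e-06), with signals of 235, 290 and 193 in that QC. ERF115 was higher by 3.29 ± 0.39 (limma, adjusted p = 5.96e-06), with 344, 135 and 222 in that QC. NTT was higher by 1.38 ± 0.35 (limma, adjusted p = 0.00382), with 32.9, 75.9 and 64.6 in that QC.

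In the same comparison TEL1 was higher by 1.42 ± 0.51 (limma, adjusted p = 0.0297), with 82.1, 148 and 70.0 in that QC; the call was lost under 6 of 20 alternatives, among them leaving out QC replicate 2 (1.15). WIP4, with 52.8, 133 and 77.6, differed by 1.06 ± 0.43 and missed the threshold (limma, adjusted p = 0.0537), although its arrays did not overlap with the meristems. AGL42, with 260, 141 and 62.8, differed by -1.28 ± 0.67 (limma, adjusted p = 0.128). When only the 6 arrays compared were fitted, both passed, WIP4 at 1.06 (limma, adjusted p = 0.0297) and AGL42 at -1.28 (limma, adjusted p = 0.0209). In all, 4 of 6 members passed, all higher, against 46.2% of all probe sets in either direction and 20.5% higher. NTT and ERF115 entered this fit, too, through its QC arrays, so the count is given as a description. Plastid-encoded transcripts moved with this contrast. Their mean log2 signal over 80 genes was 9.23 to 9.49 in the separate QC and 9.68 to 10.3 in the QC grown with jkd, against 7.16 to 7.31 in wild type meristems. Their part in the QC differences was not tested.

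The mutant pair gave the same picture for 3 genes. In jkd QC against jkd meristems, MYB56 (1.81 ± 0.32, limma, adjusted p = 0.000215), ERF115 (3.29 ± 0.39, limma, adjusted p = 4.62e-06) and NTT (1.74 ± 0.35, limma, adjusted p = 0.000535) were higher. These were 3 of 6 members, where 51.3% of all probe sets passed and 20.2% were higher. The fit is the same one, which NTT and ERF115 entered through its QC arrays, so this count is also a description. TEL1 differed by 0.55 ± 0.51 and WIP4 by 0.08 ± 0.43, and neither passed. AGL42 differed by -1.56 ± 0.67 (limma, adjusted p = 0.0612), and by -2.71 without jkd QC replicate 3 (limma, adjusted p = 0.000124).

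**Figure D2:**
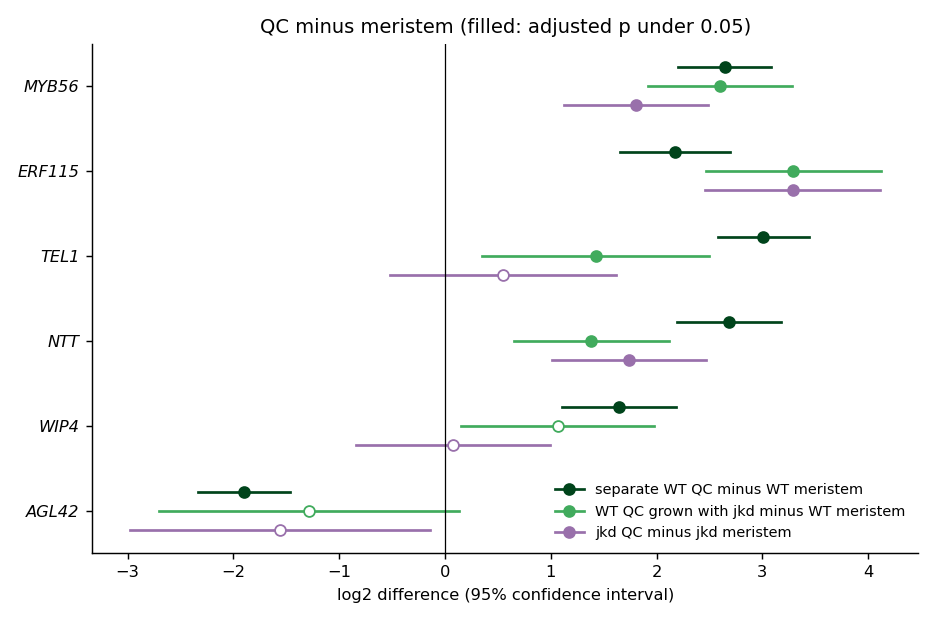
Difference between QC and meristem on the log2 scale with its 95% confidence interval, for the 3 pairings of QC and meristem arrays; filled points passed at an adjusted p under 0.05. MYB56, ERF115 and NTT are filled in all 3 pairings, and AGL42 lies below 0 in all 3, filled for the separate QC harvest. ERF115 and NTT entered the fits through the QC arrays, where they are high.

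Both wild type QC harvests were set against each other to see how far a marker depends on the harvest. TEL1 was 3.19 times higher in the separate harvest by mean signal (log2 difference 1.59 ± 0.30, limma, adjusted p = 0.00219), and NTT was 2.78 times higher (1.30 ± 0.33, limma, adjusted p = 0.0126). ERF115 was lower in the separate harvest, by -1.12 ± 0.33 (limma, adjusted p = 0.0281). MYB56 had nearly the same level in both, 244 ± 13.3 in the separate harvest and 239 ± 48.9 in the one grown with jkd (SD, n = 3 each), a log2 difference of 0.04 with a 95% interval of -0.51 to 0.59. WIP4 (0.58 ± 0.35) and AGL42 (-0.62 ± 0.41) did not pass. The count was 3 of 6 members, where 23.1% of all probe sets differed. It fell to 1 without replicate 2 or without replicate 3 of the separate harvest, when TEL1 alone was left; NTT then had log2 differences of 1.29 and 1.22, and ERF115 of -1.15 and -1.16. The ERF115 call was lost in 5 of the 6 fits that left out 1 array, also without replicate 1 of the separate harvest (-1.05) and without replicates 1 and 3 of the QC grown with jkd (-0.81 and -1.11).

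Root cap markers (4 genes) and endodermis markers (6 genes) also differed between the harvests. Summed root cap signal was 1112 to 1286 in the separate harvest, against 331 to 551 in the QC grown with jkd. Summed endodermis signal was 2270 to 3147 in the separate harvest, against 768 to 1432 in the QC grown with jkd. Taken singly, 2 of the 4 root cap markers were higher in the separate harvest and 1 was lower. For the 6 endodermis markers, 4 were higher and none lower, where 23.1% of all probe sets differed in either direction. Their part in the TEL1, NTT and ERF115 differences was not tested.

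The time series asked whether SCR cells gain the markers on 2,4-D. MYB56 and ERF115 rose step by step, TEL1 appeared late from a level near the bottom of the arrays, and NTT, WIP4 and AGL42 did not pass the test at any time. At 0 h the medians over all probe sets were 83.2 to 103 signal units per array, against 57.5 to 74.2 on the treated arrays, and the median log2 change of all tested probe sets was -0.21 at 24 h and -0.11 at 96 h.

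MYB56 had 60.1, 42.8 and 104 at 0 h, then 89.7 and 147 at 24 h, 124 and 302 at 48 h, 371 and 717 at 72 h, and 992 and 1641 at 96 h. From 48 h on, both arrays of every time were above all 0 h arrays. The log2 change against 0 h was 0.69 ± 0.44 at 24 h (limma, adjusted p = 0.213), 1.37 ± 0.44 at 48 h (limma, adjusted p = 0.0203), 2.71 ± 0.44 at 72 h (limma, adjusted p = 0.000275) and 3.99 ± 0.44 at 96 h (limma, adjusted p = 1.2e-05). By mean signal this last change was 19.1-fold. At 48 h the call was lost without 0 h replicate 3 (1.14) or without 48 h replicate 3 (0.78).

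ERF115 had 89.3, 39.9 and 51.6 at 0 h, then 119 and 113 at 24 h, 189 and 116 at 48 h, 139 and 403 at 72 h, and 415 and 571 at 96 h. Every treated array was above every 0 h array. The log2 change was 0.85 ± 0.42 at 24 h (limma, adjusted p = 0.112), 1.16 ± 0.42 at 48 h (limma, adjusted p = 0.0347), 1.79 ± 0.42 at 72 h (limma, adjusted p = 0.0033) and 2.77 ± 0.42 at 96 h (limma, adjusted p = 0.000126), or 8.18-fold by mean signal at 96 h. The 2 arrays of 72 h lay far apart, and without replicate 3 of that time the change was 1.07 (limma, adjusted p = 0.0789). The 48 h call was lost without any 1 of 4 arrays, with changes of 0.96 without 0 h replicate 3, 1.10 without 0 h replicate 5, 0.84 without 48 h replicate 2 and 1.48 without 48 h replicate 3.

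TEL1 had 3.4, 4.3 and 10.1 at 0 h, then 1.4 and 4.5 at 24 h, 7.4 and 30.8 at 48 h, 47.4 and 42.5 at 72 h, and 57.8 and 71.7 at 96 h. Its 0 h signals lay at the 5.18th to 10.4th percentile of their arrays and its 96 h signals at the 48.5th to 50.9th. The intensity filter left TEL1 and NTT out of the time series fit. Fitted without the filter, TEL1 changed by -0.20 ± 0.38 at 24 h, 0.61 ± 0.38 at 48 h, 1.49 ± 0.38 at 72 h (limma, adjusted p = 0.00569) and 1.89 ± 0.38 at 96 h (limma, adjusted p = 0.00107). These values understate the change of so low a signal, because 16 is added before the log.

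NTT had 6.3, 2.5 and 6.1 at 0 h, then 2.6 and 0.7 at 24 h, 15.7 and 3.7 at 48 h, 18.0 and 21.4 at 72 h, and 31.3 and 2.8 at 96 h. Both arrays of 72 h were above 0 h, but of the arrays of 96 h 1 was above 0 h and the other lay within the 0 h range. Without the filter NTT differed from 0 h by 0.51 ± 0.38 at 96 h and did not pass (limma, adjusted p = 0.283). WIP4 had 33.9, 30.5 and 31.4 at 0 h, then 21.5 and 21.0 at 24 h, 21.5 and 13.6 at 48 h, 22.9 and 46.8 at 72 h, and 50.4 and 31.8 at 96 h. Its log2 change was -0.52 ± 0.37 at 48 h and 0.23 ± 0.37 at 96 h, neither of which passed. Under quantile normalization the 48 h value of WIP4 turned to 0.29 and its 96 h value passed at 0.92 (limma, adjusted p = 0.0357).

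AGL42 had 123, 134 and 96.7 at 0 h, then 120 and 92.8 at 24 h, 164 and 94.8 at 48 h, 104 and 195 at 72 h, and 150 and 131 at 96 h. The arrays of every treated time overlapped with 0 h. Its change at 96 h was 0.23, with a 95% interval of -0.52 to 0.98 (limma, adjusted p = 0.599).

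Counted over the tested members, 0 of 4 passed at 24 h, where 48.1% of all probe sets did; without adjustment 0 of 4 had p under 0.05 in limma, against 6379 of the 11469 probe sets. At 48 h, 72 h and 96 h, 2 of 4 passed, both higher, where 49.0%, 49.3% and 52.4% of all probe sets passed; those higher made up 21.8%, 23.0% and 24.7%. In the joint test of all treated times the count was also 2 of 4, beside 51.7% of all probe sets.

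The change between 24 h and 96 h is a contrast within treated seedlings. MYB56 was higher at 96 h by 3.30 ± 0.49 (limma, adjusted p = 0.00316) and ERF115 by 1.93 ± 0.46 (limma, adjusted p = 0.0339). These were 2 of 4 members, where 3.86% of all probe sets passed and 1.97% were higher. The members were chosen with earlier results of these data known, so the count is given as a description. TEL1, fitted without the filter, was higher by 2.09 ± 0.42 (limma, adjusted p = 0.0151). The count rests on few arrays: without 24 h replicate 2 neither gene passed (MYB56 2.99, ERF115 1.96), and ERF115 was lost without any 1 of the 4 arrays of 24 h and 96 h (1.70 to 2.15).

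**Figure D3:**
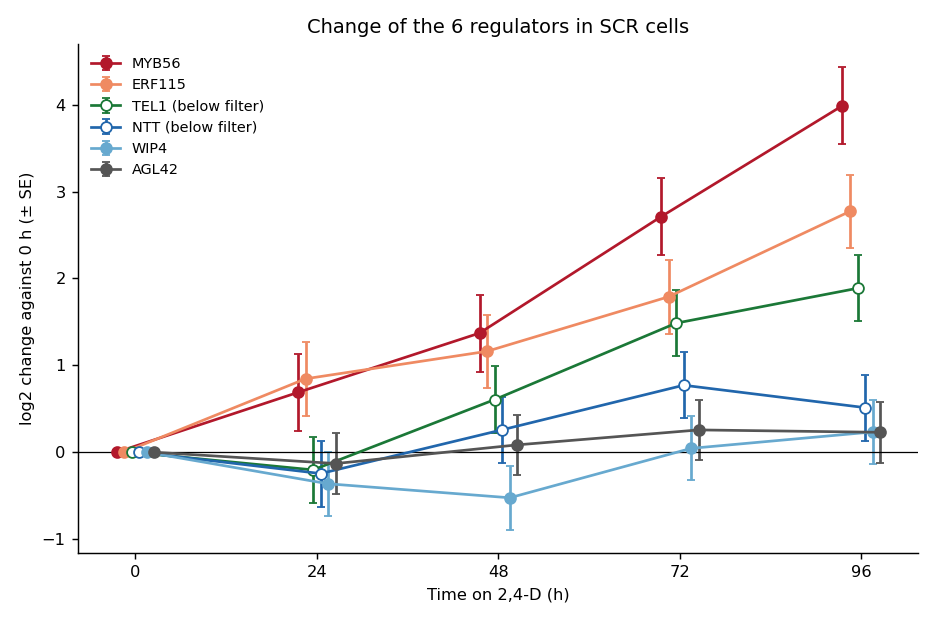
Log2 change of each gene against 0 h in SCR cells (± SE) over hours on 2,4-D, with open points for TEL1 and NTT, which were fitted without the intensity filter. MYB56 and ERF115 climb at each step to 3.99 and 2.77 at 96 h, and AGL42 and WIP4 end at 0.23 each.

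Markers of the endodermis moved strongly over the same hours. The summed signal of the 6 endodermis markers was 13892 to 24088 at 0 h and 452 to 566 at 96 h, so that the cells labelled endodermis no longer stood above wild type meristems (478 to 799) in these markers at 96 h. Root cap markers summed to 212 to 545 at 0 h and 356 to 390 at 96 h, and xylem markers (4 genes) to 38.8 to 84.6 at 0 h and 47.1 to 78.6 at 96 h. The 1 xylem marker that was tested was higher at 96 h, by 1.39, where 24.7% of all probe sets were higher. The phloem marker (1 gene) read 11.9 to 24.1 at 0 h and 219 to 233 at 96 h, and the epidermis and root hair markers (4 genes) summed to 201 to 1002 at 0 h and 31.0 to 82.0 at 96 h. Mean log2 signal of the plastid-encoded genes was 7.08 and 7.67 on 0 h replicates 1 and 3 and 10.01 on 0 h replicate 5, and 8.99 to 10.02 on the treated arrays. Without 0 h replicate 5 the changes at 96 h were 4.27 for MYB56 (limma, adjusted p = 1.45e-06), 2.71 for ERF115 (limma, adjusted p = 0.00013) and 2.02 for TEL1 (limma, adjusted p = 0.00111). Group means of 61 mitochondrial genes were 6.43 at 0 h and 7.42 to 8.03 at the treated times. The part of the changing cell content and of the organelle transcripts in the rise of MYB56, ERF115 and TEL1 was not tested.

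The next comparison asked how near each marker came to its QC level. Against the separate QC harvest, MYB56 and ERF115 ended above its level, whereas TEL1, NTT and WIP4 stayed below it at every time. At 96 h TEL1 overlapped with the other wild type QC harvest.

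MYB56 was lower in 0 h SCR cells than in the separate QC by -1.68 ± 0.36 (limma, adjusted p = 0.00114). It differed by -0.99 ± 0.40 at 24 h, by -0.30 ± 0.40 at 48 h and by 1.04 ± 0.40 at 72 h (limma, adjusted p = 0.0703), without passing the test. At 96 h it was higher than in the QC by 2.31 ± 0.40 (limma, adjusted p = 0.000428), 5.39-fold by mean signal. ERF115 differed from the QC by -0.55 ± 0.35 at 0 h, 0.29 ± 0.39 at 24 h and 0.61 ± 0.39 at 48 h, which did not pass. It was higher by 1.24 ± 0.39 at 72 h (limma, adjusted p = 0.0285) and by 2.22 ± 0.39 at 96 h (limma, adjusted p = 0.000454), 5.34-fold by mean signal. ERF115 was itself lower in this harvest than in the QC grown with jkd, whose arrays read 344, 135 and 222; both 96 h arrays, 415 and 571, were above these as well. The 72 h call was lost without 72 h replicate 3 (0.52) and without any 1 of the 3 QC arrays (1.16 to 1.28).

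TEL1 was lower than in the separate QC by -3.94 ± 0.31 at 0 h (limma, adjusted p = 1.26e-07), by -2.46 ± 0.35 at 72 h and by -2.06 ± 0.35 at 96 h (limma, adjusted p = 0.000362). At 96 h its mean was 64.8 ± 9.83 (SD, n = 2), against 319 ± 24.4 (SD, n = 3) in the separate QC, a ratio of 0.203. WIP4 was lower by -1.62 ± 0.31 at 0 h (limma, adjusted p = 0.000468), by -2.15 ± 0.35 at 48 h and by -1.39 ± 0.35 at 96 h (limma, adjusted p = 0.00655); the 96 h call was lost without 96 h replicate 3 (-1.15), and the 72 h difference of -1.58 without 72 h replicate 2 (-1.23). NTT, fitted without the filter, was lower by -3.07 ± 0.36 at 0 h (limma, adjusted p = 2.46e-06) and by -2.56 ± 0.40 at 96 h (limma, adjusted p = 0.000122). In the QC grown with jkd TEL1 read 82.1, 148 and 70.0, which overlapped with its 96 h arrays (57.8 and 71.7). WIP4 and NTT did not overlap there. Their lowest arrays of that QC read 52.8 and 32.9, and their highest 96 h arrays 50.4 and 31.3.

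AGL42 was above the separate QC level at every time without passing: the difference was 0.44 ± 0.30 at 0 h and 0.67 ± 0.33 at 96 h (limma, adjusted p = 0.14). Of the 5 members tested against the separate QC, 3 passed at 0 h, all lower, where 51.3% of all probe sets passed and 25.7% were lower. TEL1, which the filter left out of the SCR arrays alone, entered these fits through the QC arrays, where it is high, so the counts are given as a description. At 24 h and at 48 h 2 passed, with backgrounds of 31.7% and 30.6%. At 72 h 3 passed, beside 25.0%, and at 96 h 4 passed, 2 higher and 2 lower, beside 30.3% of all probe sets (13.8% higher and 16.5% lower). Without 0 h replicate 5, an array that enters these fits only through the shared spread and the filter, the count was 4 at 24 h and 5 at 72 h, with MYB56 passing at both times and NTT entering the test.

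**Figure D4:**
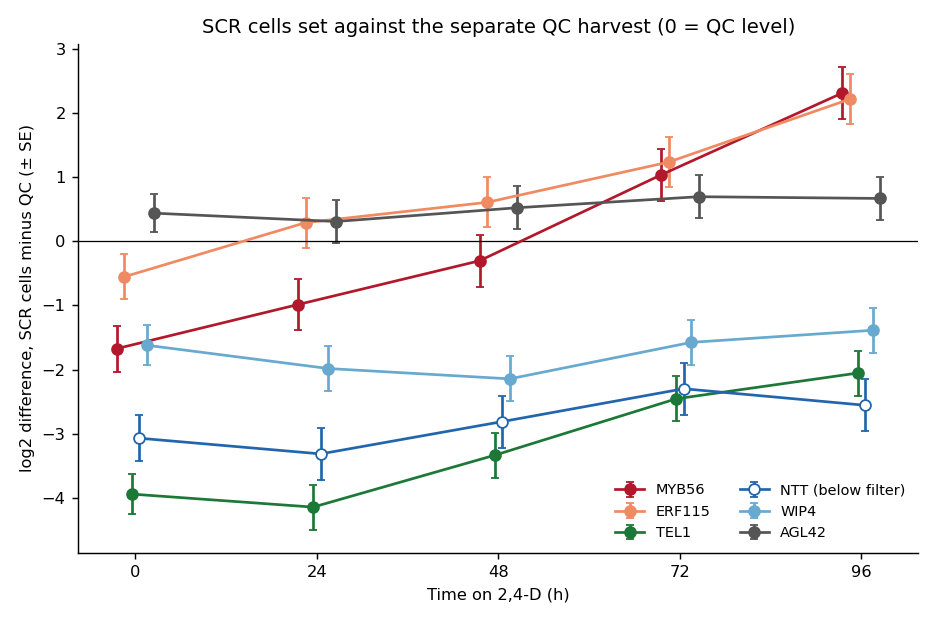
Log2 difference between SCR cells and the separate QC harvest (± SE) by hours on 2,4-D. The level of that harvest is 0, and open points mark NTT, fitted without the filter. MYB56 and ERF115 cross 0 and reach 2.31 and 2.22 at 96 h, and TEL1, NTT and WIP4 remain below 0 throughout.

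The jkd comparison asked whether these genes depend on JKD. No member passed the test in jkd QC against the wild type QC grown with it, where 2.29% of all probe sets did (263 of 11469, limma). Before adjustment 3 of 6 members, TEL1, MYB56 and WIP4, had p under 0.05, against 2092 of all probe sets, and all 6 estimates were below 0. The median over all probe sets was also below 0, at -0.10, and the share of probe sets below 0 was not counted.

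MYB56 had 154, 95.3 and 187 in jkd QC, against 235, 290 and 193 in wild type QC. The groups did not overlap, and the difference was -0.69 ± 0.32 (limma, adjusted p = 0.268). TEL1 had 30.8, 3.19 and 113 in jkd QC, against 82.1, 148 and 70.0 in wild type QC, a difference of -1.19 ± 0.51 (limma, adjusted p = 0.219). WIP4 had 7.05, 66.2 and 19.7 in jkd QC, against 52.8, 133 and 77.6 in wild type QC, a difference of -1.27 ± 0.43 (limma, adjusted p = 0.126). In both TEL1 and WIP4 1 jkd array lay within the wild type range and the other two below it.

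The jkd QC arrays of AGL42 spread from 26.4 and 47.3 on replicates 1 and 2 to 548 on replicate 3, against 260, 141 and 62.8 in wild type QC. Its difference of -0.39 ± 0.67 was smaller than this spread. Single arrays decided 3 of these values. Without jkd QC replicate 3, TEL1 passed at -1.89 (limma, adjusted p = 0.0207) and AGL42 at -1.54 (limma, adjusted p = 0.0471); AGL42 had 0.33 without replicate 1. Without jkd QC replicate 2, WIP4 passed at -1.78 (limma, adjusted p = 0.0273).

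ERF115 had 248, 237 and 107 in jkd QC, against 344, 135 and 222 in wild type QC, and its difference of -0.22 had a 95% interval of -1.05 to 0.61. NTT had 29.1, 55.0 and 58.1 in jkd QC, against 32.9, 75.9 and 64.6 in wild type QC, and its difference of -0.20 had an interval of -0.93 to 0.53.

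The summed signal of the 6 endodermis markers was 326 to 491 in jkd QC, against 768 to 1432 in wild type QC. Of the 6, 2 were lower and none higher, beside 2.29% of all probe sets in either direction. The list median was -1.16, against -0.10 over all probe sets. The 4 xylem markers summed to 133 to 179 in jkd QC, against 242 to 456 in wild type QC, and none of the 3 tested passed. Neither list overlapped between the groups, and the part of these cell types in the lower estimates of the members was not tested.

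In whole meristems no member passed either, where 0.148% of all probe sets did, and none of the 6 had an unadjusted p under 0.05 in limma (246 of all probe sets had). NTT had 1.08, 0.85 and 6.06 in jkd meristems, against 11.3, 8.57 and 14.5 in wild type meristems, without overlap; all were below the 30th percentile of their arrays and the difference was -0.56 ± 0.35. TEL1 had 21.8, 21.9 and 9.88 in jkd meristems, against 25.0, 25.9 and 25.5 in wild type meristems, also without overlap (-0.32 ± 0.51). ERF115 had 3.79, 11.1 and 0.42 in jkd meristems, against 11.6, 5.96 and 6.62 in wild type meristems, with overlap. NTT and ERF115 entered this fit through its QC arrays; on the 6 meristem arrays alone the other 4 members were tested and 0 passed. AGL42, well measured there, had 308, 262 and 415 in jkd meristems, against 374, 352 and 326 in wild type meristems, with overlap. The jkd effect in QC minus that in meristems passed for 0 of 6 members and for 0% of all probe sets; 909 probe sets and none of the members had an unadjusted p under 0.05 in limma. The largest of the 6 differences was that of WIP4, -0.99 ± 0.61.

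**Figure D5:**
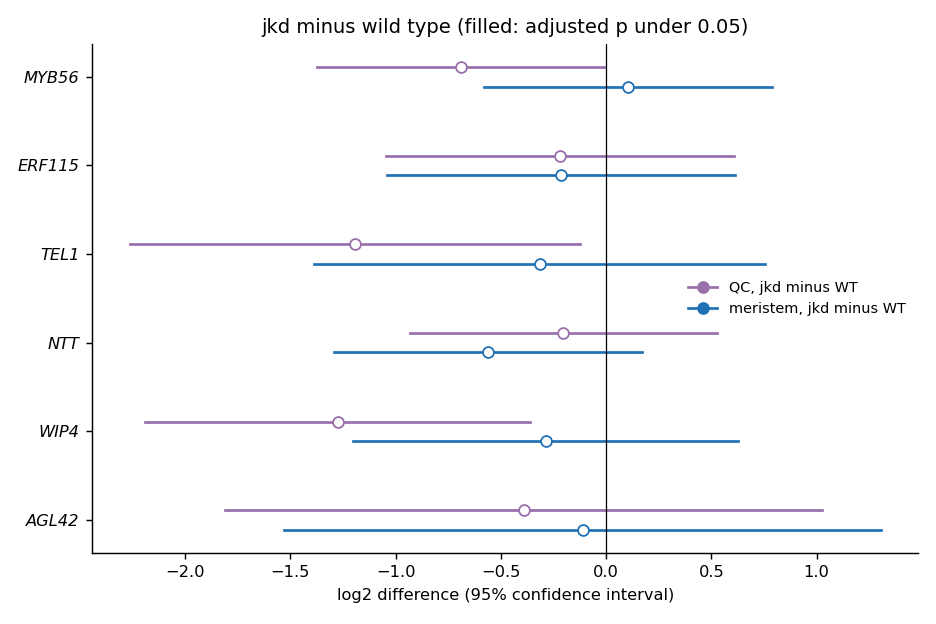
Difference between jkd and wild type on the log2 scale with its 95% confidence interval, in QC and in meristem; open points did not pass at an adjusted p under 0.05, and no point passed. The QC intervals of TEL1, WIP4 and MYB56 lie below 0 before adjustment, and AGL42 has the widest intervals.

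The table holds 7 relatives of MYB56 from its MYB subgroup (MYB52, MYB54, MYB69, MYB89, MYB105, MYB110 and MYB117), and none passed the filter: their group means ran from 0.6 to 46.1. DOT5, the WIP gene on the table besides the members, had means of 54.6 at 0 h and 5.4 at 96 h and was not tested. Of 4 relatives of AGL42, AGL14, a MADS-box gene of root auxin transport, was the one tested in the time series: its mean signal was 25.8 at 0 h and 116 at 96 h, a change of 1.84 ± 0.48 (limma, adjusted p = 0.00597). It was also above the separate QC at 96 h by 2.65 ± 0.46, where its QC mean was 4.7.

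Among the Mei2-like relatives of TEL1, ML4 rose by 1.75 ± 0.30 and ML5 by 0.75 ± 0.29 at 96 h (limma, adjusted p = 0.000318 and 0.0458). These were 2 of 3 tested, where 24.7% of all probe sets were higher. ML4 and ML5 had risen by 1.79 and 1.06 already at 24 h, when TEL1 read 1.4 and 4.5. The closer relative TEL2 had a mean of 18.2 at 96 h and was not tested. In QC, ML1, ML4 and ML5 were lower in the separate harvest than in the QC grown with jkd, by -0.79, -1.19 and -1.19, the opposite of TEL1. Of all probe sets 23.1% differed there in either direction.

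The ERF relatives of ERF115 differed from it in the time series. RRTF1, a stress-inducible ERF gene, fell by -2.21 ± 0.35 at 96 h (limma, adjusted p = 0.000175) and Rap2.6L, an ERF gene tied to regeneration, by -1.83 ± 0.46 (limma, adjusted p = 0.00456); AT5G61890 changed by -1.73 ± 0.75 and did not pass. In the separate QC against the meristem the same 3 genes were all higher, by 2.67, 0.90 and 3.67, as ERF115 was. Of all probe sets 27.0% were higher there. The list median at 96 h was -1.83, against -0.11 over all probe sets.

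Of the partners and targets of ERF115, 2 of 4 rose and 1 fell at 96 h, where 52.4% of all probe sets passed and 24.7% were higher. MP, an auxin response factor acting downstream of ERF115 in regeneration, rose by 2.94 ± 0.30 (limma, adjusted p = 5.01e-06), and CCS52A2 rose by 1.96 ± 0.42 (limma, adjusted p = 0.00166). Both had already passed at 24 h, by 2.51 and 1.54. PSK5, a phytosulfokine peptide gene that ERF115 activates, fell by -1.41 ± 0.49 (limma, adjusted p = 0.0279), with means of 155 at 0 h, 241 at 24 h and 42.8 at 96 h. PAT1, a GRAS partner of ERF115, had 0.02 ± 0.48. In jkd QC against wild type QC, PSK5 was higher by 1.48 ± 0.33 (limma, adjusted p = 0.0274), while ERF115 did not pass there.

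Among 5 tested genes that work with MYB56 or with brassinosteroids, 2 rose and 1 fell at 96 h, beside the same 52.4% passing and 24.7% higher. The brassinosteroid receptor gene BRI1 rose by 2.44 ± 0.35 (limma, adjusted p = 8.82e-05), and the corepressor gene TPL by 1.61 ± 0.29 (limma, adjusted p = 0.000471). BZR1, a transcription factor of the pathway, fell by -1.33 ± 0.33 (limma, adjusted p = 0.00393) on a probe set that can read more than 1 gene. The D-type cyclin gene CYCD3;3 (0.63 ± 0.39) did not pass. In jkd QC against wild type QC 0 of the 5 passed, beside 2.29% of all probe sets.

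A wider list of niche regulators gave the setting. At 96 h, 6 of 11 tested rose and none fell, where 24.7% of all probe sets were higher. The list median was 1.10, against -0.11 over all probe sets. The AP2-type genes BBM (4.71 ± 0.39, limma, adjusted p = 1.11e-06) and AIL6 (2.77 ± 0.34) rose most, followed by the signalling peptide gene CLE40 (1.70 ± 0.36) and the GRAS gene SHR (1.52 ± 0.46). BBM and AIL6 had risen by 2.51 and 2.55 at 24 h, when 0 of the 4 tested members passed in the main fit. With quantile normalization 2 of the 4 passed at 24 h, and with the replicate block 1 did. SCR cells at 0 h were lower than the separate QC for 9 of the 12 tested and higher for 1, SCR. Of all probe sets 51.3% passed there and 25.7% were lower. At 96 h 3 of the 12 were above the separate QC and 2 below, where 13.8% of all probe sets were higher and 16.5% lower. Those below were TAA1, an auxin biosynthesis gene (-2.32 ± 0.31), and PLT1, an AP2-type gene (-1.59 ± 0.42), as TEL1 and WIP4 were. In jkd QC against wild type QC 2 of the 12 were lower, JKD (-1.96 ± 0.35, limma, adjusted p = 0.00827) and SCR (-1.47 ± 0.35, limma, adjusted p = 0.0348), beside 2.29% of all probe sets in either direction. In jkd meristems 1 of the 12 was lower, JKD (-2.95 ± 0.35, limma, adjusted p = 0.000424), beside 0.148% of all probe sets in either direction.

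The order of the groups differed from gene to gene. MYB56 ran from 96 h and 72 h SCR cells, through both wild type QC harvests (244 and 239), 48 h, jkd QC, 24 h and 0 h, down to the meristems (29.3 in jkd and 25.7 in wild type); of 9 neighbouring pairs in that order 6 overlapped in their arrays, and the steps without overlap were 96 h over 72 h, 72 h over the separate QC, and 0 h over the jkd meristem. ERF115 was likewise highest at 96 h and lowest in the meristems, there with wild type (8.06) above jkd (5.10), and 6 of its 9 pairs overlapped. TEL1 was highest in the separate QC and lowest in SCR cells at 24 h, with 7 of 9 pairs overlapping. NTT had the same ends, also with 7 overlapping pairs, and its 3 QC groups were the top 3. WIP4 was highest in both wild type QC groups, and of its 9 pairs 8 overlapped, the exception being the QC grown with jkd over SCR cells at 96 h. For AGL42 all 9 pairs overlapped, with the wild type meristem highest and the separate QC lowest.

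For each member the probe sets with the most similar pattern were found by Pearson correlation of log2 signals over the 26 arrays, among 10972 probe sets; the arrays share groups and harvests, so these are descriptions without a test. MYB56 was most like UMAMIT8, an amino acid transporter-like gene (0.927), DMS11 (0.927) and POK2, a kinesin gene of the division plane (0.901). POK2 had a mean of 6.17 at 0 h and 212 at 96 h. ERF115 was most like ACR7, an ACT-domain gene (0.928), HL (0.906) and KAK, a ubiquitin ligase gene known from trichomes (0.906).

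NTT had AT5G47440 (0.901), AT3G55550 (0.901) and AT5G50740 (0.879) as its nearest, all with their highest mean in the separate QC (576, 1101 and 1884). WIP4 had weaker neighbours, the glutathione transferase gene GSTU20 (0.823), AT4G23490 (0.815) and UMAMIT22 (0.808). AGL42 had AT5G28750 (0.838), AT3G58470 (0.836) and AT4G17610 (0.833), all with their highest means in the meristems. TEL1 had AT3G07600 (0.891) and AT2G47500 (0.870) among its nearest, both with their highest means in the separate QC (91.0 and 853).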

How the data were processed

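The authors deposited 1 table of probe set intensity values (linear signal, made with MAS5 per the submitters' processing notes) for all 26 arrays, and these deposited intensity values were used unchanged. RNA of the SCR and QC cells came from sorted protoplasts, no sort is described for the meristems, and RNA was amplified before labelling, per the labels' protocols. Members were matched by locus code. A genome build is not given in the sources used here, and gene symbols came from RefSeq (16032 of 16255 loci matched). From the values, log2(signal + 16) was computed, and each fit kept the probe sets above the 30th percentile of mean log2 signal among its arrays (11469). Groups were compared in R 4.3.3 with limma 3.58.1 (lmFit and eBayes with trend and robust settings), with Benjamini-Hochberg adjustment over all tested probe sets. Fits held the 11 SCR arrays, those plus the separate QC, the 12 jkd and wild type arrays, or the pair of groups named. A fold is a ratio of mean signals.

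Named genes were the 6 members, up to 4 genes a list and comparison with the largest change that passed, all family relatives, the 3 most similar patterns per member, and SCR and JKD as label checks. PAT1 and CYCD3;3, outside this rule, were named after their values were seen. The members and lists were chosen with earlier results of these data known. WOX5 is not analysed here, and 1 of the 3 patterns nearest to TEL1 is not reported here. Alternatives were other pseudocounts, no filter, quantile normalization, plain eBayes, 1 fit of all arrays, the replicate number as a block, and leaving out each array. Fits on the compared arrays alone were added after seeing the data. Replicate numbers were not used to pair the arrays in the main fits. Deviations of same-numbered arrays correlated weakly, between -0.13 and 0.19, which does not settle whether the numbers pair them. For MYB56, replicate 3 was above replicate 2 at every treated time. The number of arrays limits the precision.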

Additional observations from a re-analysis of the deposited data

How the results depend on the processing

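No member reversed a called direction under any alternative. Of the single-gene results 1624 stayed on their side of the threshold, 34 fell below it, 26 passed it and 10 that were not called moved in sign or size. The number of members passing changed by over 1.5 times as follows. At 24 h against 0 h it was 2 with quantile normalization and 1 with the replicate block (0 otherwise), and at 48 h 1 with a pseudocount of 64. From 24 h to 96 h it was 1 with a pseudocount of 1 and 1 with quantile normalization. At 72 h against the separate QC it was 5 with a pseudocount of 64 and 5 in 1 fit of all arrays. For the wild type QC grown with jkd against meristem it was 2 with a pseudocount of 1. Among smaller changes, it was 6 on the arrays compared alone, 5 with a pseudocount of 64, with plain eBayes and in 1 fit of all arrays, and 3 with quantile normalization, beside the 4 reported. For jkd QC against jkd meristem it was 2 with a pseudocount of 1 and on the arrays compared alone and 4 in 1 fit of all arrays, beside 3. At 96 h it was 3 with quantile normalization. No filter added TEL1 at 72 h and 96 h and NTT against the separate QC. Leaving out single arrays gave 0 to 2 members at 48 h, 1 to 3 at 72 h, 0 to 3 from 24 h to 96 h, 2 to 4 at 24 h and 2 to 5 at 72 h against the separate QC, 2 to 5 for the QC grown with jkd against meristem, 1 to 4 between the QC harvests and 0 to 2 for jkd against wild type QC.

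Counts over all probe sets moved by over 1.5 times in these cases. From 24 h to 96 h, 443 became 247 with quantile normalization, 707 in 1 fit of all arrays, 935 with the replicate block and 14 to 801 without single arrays. The separate QC against meristem went to 4378 (of 6690) in 1 fit of all arrays. For jkd against wild type QC, 263 became 436 in 1 fit of all arrays, 12 on the 6 arrays compared alone and 142 to 672 without single arrays. In meristem, 17 became 107 on the arrays compared alone and 7 to 24 without single arrays. The interaction had 2 and 7 with pseudocounts of 1 and 64, 9 in 1 fit of all arrays and 0 to 5 without single arrays. Without single arrays, counts against the separate QC also ranged from 2204 to 4417 at 24 h, 1856 to 4283 at 48 h, 1327 to 3691 at 72 h and 2279 to 4236 at 96 h, between the QC harvests from 1399 to 3407, and at 72 h against 0 h from 3757 to 5797. Quantile normalization moved the median change of all probe sets at 24 h to 0.03 (from -0.21) and split its calls into 2838 higher and 2486 lower, against 2372 and 3150. At 24 h AGL42 then had 0.23 and WIP4 0.29. The replicate block called MYB56 at 24 h (1.59) and at 24 h and 72 h against the separate QC, and changed no other member's call. Whether the numbers pair the arrays was not settled. The ERF115 difference of QC grown with jkd from meristem was 1.99 with a pseudocount of 64 and 4.64 with 1. The causes were not tested.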

Other observations

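Over the 26 arrays the members fell into sets that moved together. MYB56 and ERF115 had a Pearson correlation of log2 signals of 0.857 (0.918 over the 10 group means). TEL1 and NTT had 0.822 (0.911 over group means), and NTT and WIP4 0.797 (0.851). AGL42 had negative values with all 5 others, from -0.54 with ERF115 to -0.10 with TEL1. Within the 11 SCR arrays AGL42 was positive with all 5, from 0.231 with TEL1 to 0.634 with WIP4. There TEL1 followed MYB56 instead, at 0.947, against 0.525 with NTT. In the other 15 arrays MYB56 and NTT had 0.882, against 0.467 in the SCR arrays. The arrays of a group share cells and harvest, so these values describe the arrays and carry no test.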
